A study of Arabidopsis thaliana with 2 samples.

Results

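A set of 73 genes was at least 4-fold lower in dcl1-5 than in wild-type early globular embryos of Arabidopsis thaliana. The genes were chosen from the measured values themselves. A gene entered when the mean of both libraries was at least 5 RPM (reads per 1000000 reads that matched the genome) and log2((dcl1-5 RPM + 1) / (wild-type RPM + 1)) was at most -2. Of 20612 loci listed, 10240 reached the mean of 5 RPM, and 83 of these (0.811%) were that much lower. The rule leaves out 10 of the 83 by name, and 73 remain. Because both libraries served to choose them, their differences are a description and no test of the genotypes is given.

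Strand-specific sequencing of poly(A) RNA gave 2 libraries, and each genotype, wild type (Col-0) or dcl1-5, has 1 of them. The wild-type plants carry no mutation named in the labels, and the dcl1-5 line carries a mutant allele of DICER-LIKE1 (DCL1). Both genotypes were raised with a day of 16 hours, and each library pools 30 embryos that were dissected by hand, with 2 rounds of linear amplification before sequencing. With 1 library per genotype there is no replicate check, and intervals in brackets are exact 95% intervals that cover counting error only. For the chosen genes the intervals make no allowance for the choice on the same reads, so the stated coverage does not hold for them. In pooled embryos, fewer cells of a type and less RNA per cell cannot be told apart.

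DCL1 is the RNase III enzyme that releases plant microRNAs (miRNAs) from hairpin transcripts. A miRNA guides an ARGONAUTE protein to matching messenger RNAs, which are then cleaved or held back from translation; loss of the enzyme is known to raise the transcripts that miRNAs target directly. The early globular embryo is a small ball of cells in which the outer layer, the inner vascular and ground precursors and the founder of the root are being set apart, and dcl1 embryos are known for early patterning defects and for switching on maturation genes too soon.

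Lower genes were the smaller side of the comparison at the RPM scaling used here. At least 4-fold higher in dcl1-5 were 801 of the 10240 genes (7.82%), which is 9.65 for each gene that was 4-fold lower. That balance depends on how the libraries are scaled. Some other scalings, given in the last section, raised the number of lower genes, and the higher genes were counted at this scaling only. The median log2 ratio of all 10240 genes was 0.63, above 0, and that of the 73 genes was -2.46. Their log2 ratios ran from -4.77 to -2.002, with 21 genes at or below -3, 11 between -3 and -2.5, and 41 above -2.5. In wild type the 73 genes had from 9.44 to 1859 RPM with a median of 19.1 RPM, and in dcl1-5 from 0 to 463 RPM with a median of 2.22 RPM. In dcl1-5, 56 of them were under 5 RPM and 17 were not. Together they held 0.643% of the wild-type reads that matched the genome and 0.120% of the dcl1-5 reads. Members were found at all levels of expression, with smaller shares among the more highly expressed genes. Over 10 equal bins of the tested genes by mean RPM, the share that members held ran from 1.47% in bin 3 to 0.195% in bin 9. All tested genes together had a median log2 ratio of 0.86 in bin 1, the lowest, and of 0.06 in bin 10, the highest.

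**Figure D1:**
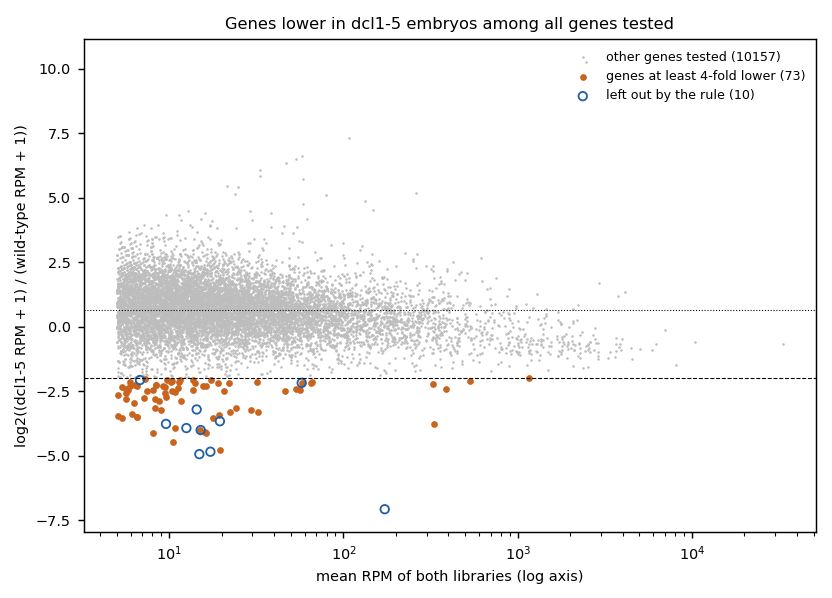
Log2 ratio of each gene (dcl1-5 over wild type, after adding 1 RPM) against the mean RPM of both libraries on a log axis. The 73 genes lie below the dashed line at -2, the 10 genes that the rule leaves out are ringed, and the dotted line marks the median of all tested genes at 0.63.

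Counting error was widest for the genes with the fewest dcl1-5 reads. In dcl1-5, 4 genes had no read at all and another 8 had between 1 and 3 reads. The whole interval of the plain RPM ratio lay beyond 4-fold for 39 genes, and for the other 34 it reached below 4-fold. The lower end of the interval was 2.84-fold or more for each of the 73. The genes were chosen on these same reads, and the intervals make no allowance for that choice. Lower ends well above equal RPM were therefore largely fixed by the rule. Neither they nor the count of 39 measure how certain the differences are. At the edge of the rule, the genes just inside were AT3G61100, AT1G53760 and ENODL13, at log2 ratios of -2.06, -2.05 and -2.002. Just outside were AT1G06475, AT2G05330 and AT3G12970, at -1.9997, -1.99 and -1.97.

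**Figure D2:**
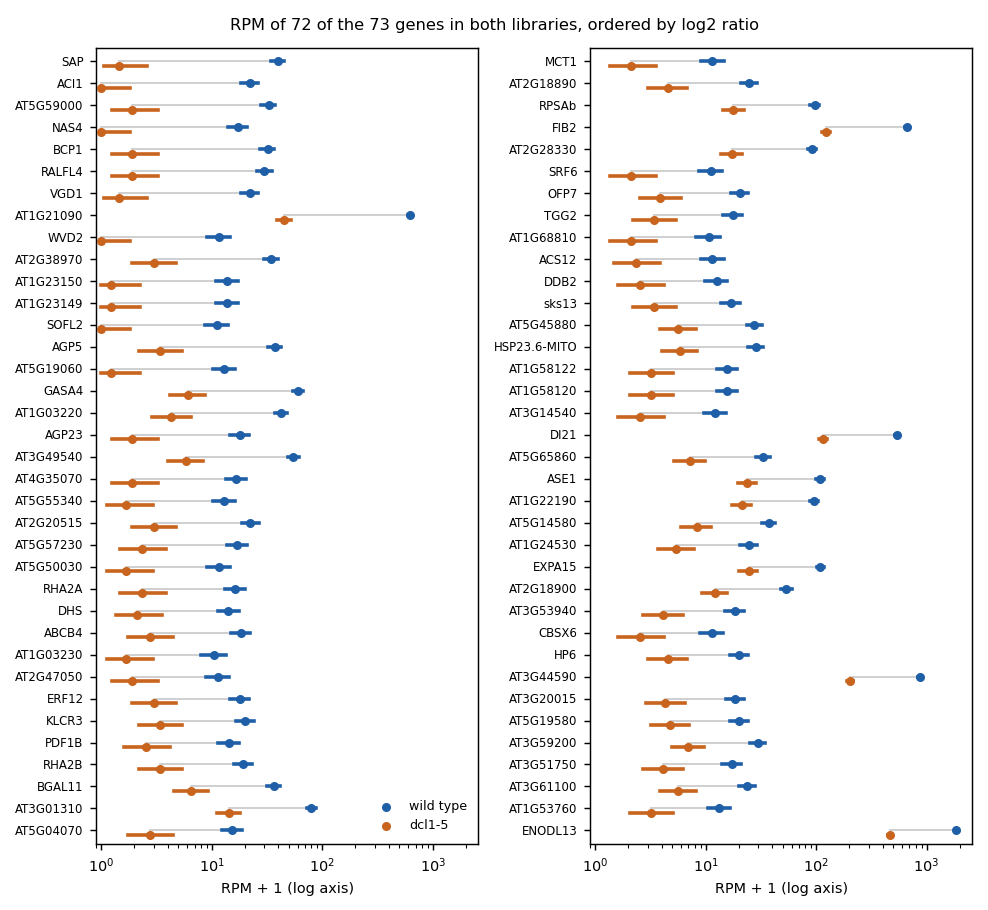
RPM + 1 of 72 of the 73 genes in wild type and dcl1-5 on a log axis, ordered from the lowest log2 ratio (top left) to the one nearest the threshold (bottom right). Points are the single library of each genotype and thick bars are exact 95% Poisson intervals, and the dcl1-5 point lies to the left of the wild-type point in every row.

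The labels were checked with DCL1 (AT1G01040), which had 26 reads or 4.63 RPM in wild type and 3 reads or 0.665 RPM in dcl1-5. These are totals over the gene and do not show which part of it was read, and another annotated locus overlaps it on the same strand. Embryo identity genes were present in both libraries: all 9 markers of the embryo list were in the table, with a summed 1034 RPM in wild type and 1140 RPM in dcl1-5. Markers of the seed coat, endosperm and suspensor summed higher in dcl1-5. The 12 seed coat markers summed to 83.8 RPM in wild type and 267 RPM in dcl1-5, the 8 endosperm markers in the table to 30.5 and 62.3 RPM, and the 3 suspensor markers to 14.4 and 49.4 RPM. More RPM in dcl1-5 than in wild type were found for 11 of the 12 seed coat markers, 5 of the 8 endosperm markers and all 3 suspensor markers. The same held for 6 of the 9 embryo markers and for 14150 of the 20612 listed loci. None of the genes on these marker lists is among the 73, which the rule partly fixes. It leaves out by name the embryo marker ESR1 (AT1G12980), which was 13.4-fold lower in dcl1-5 [6.88 to 29.9]. The part that other seed tissues had in the lower values was not tested.

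A pair of regulators of flower and fruit development headed the set by log2 ratio. STERILE APETALA (SAP, AT5G35770), an F-box protein needed for flower and ovule development, had the lowest log2 ratio of the 73. It had 38.5 RPM in wild type, from 216 reads, and 0.443 RPM in dcl1-5, from 2 reads, a ratio of 86.9 [23.8 to 722]. ACI1 (AT5G01370), a partner of the fruit-opening factor ALCATRAZ, had 118 reads or 21.0 RPM in wild type and none in dcl1-5. Against a floor of 3 dcl1-5 reads it was at least 31.6-fold lower, and the exact lower bound of its ratio was 25.3. ALCATRAZ itself (ALC, AT5G67110) had 12.1 RPM in wild type and 12.9 RPM in dcl1-5, a ratio of 0.943 [0.655 to 1.36].

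The remaining regulators in the class of transcription factors and chromatin proteins differed by less. ERF12 (AT1G28360), a repressor of the ethylene response factor family, had 16.9 RPM in wild type and 1.99 RPM in dcl1-5, 8.49-fold lower [4.29 to 19.1]. AT1G68810, also named TMO5-LIKE1, is a basic helix-loop-helix factor of the group that drives divisions of vascular precursors. It had 54 wild-type reads and 5 dcl1-5 reads, or 9.62 and 1.11 RPM, 8.69-fold lower [3.502 to 27.8]. OFP7 (AT2G18500), an ovate family protein, had 19.4 and 2.88 RPM. AT1G22190, an AP2-domain factor, had 95.7 and 20.2 RPM, 4.75-fold lower [3.79 to 5.99]. With SAP and ACI1 these make 6 genes among the 747 tested genes of the class, or 0.803%, where the set holds 0.713% of all tested genes. That share is set by the rule, since 7 of the 10 genes it leaves out by name are in the class. With them, 13 of the 747 genes (1.74%) were 4-fold lower, against 0.811% of all tested genes.

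Hormone and small-signal genes contributed 8 members of 276 tested (2.90%). The peptide RALFL4 is described with the pollen genes below. GASA4 (AT5G15230), a small secreted protein induced by gibberellin, had 59.7 RPM in wild type and 5.10 RPM in dcl1-5, 11.7-fold lower [7.68 to 18.7]. SOFL2 (AT1G68870), a positive regulator of cytokinin levels, had 57 wild-type reads or 10.2 RPM and no dcl1-5 read, at least 15.3-fold lower against the floor of 3 reads, with an exact lower bound of 12.0. The other cytokinin gene was HP6 (AT1G80100, also called AHP6), a phosphotransfer protein that lacks the conserved histidine and inhibits the pathway in forming protoxylem. It had 19.1 and 3.54 RPM, 5.38-fold lower [3.17 to 9.75].

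Auxin and ethylene each had 1 gene in the class. ABCB4 (AT2G47000), a membrane transporter that moves auxin, had 97 wild-type reads and 8 dcl1-5 reads, 17.3 and 1.77 RPM, 9.75-fold lower [4.76 to 23.2]. ACS12 (AT5G51690), named as an enzyme of ethylene synthesis but annotated as an aminotransferase of broad specificity, had 10.5 and 1.33 RPM. DI21 (AT4G15910), a drought-induced gene that responds to abscisic acid, was read far more deeply, with 2998 reads and 519 reads. That gave 534 and 115 RPM and a narrow interval, 4.65-fold lower [4.23 to 5.11].

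Receptors and kinases were few, 3 of 767 tested (0.391%). AT3G01310, an inositol polyphosphate kinase homologous to yeast Vip1, had 78.6 and 13.3 RPM, 5.91-fold lower [4.51 to 7.88]. AT2G18890, annotated as a protein kinase, had 23.7 and 3.54 RPM, and SRF6 (AT1G53730), a receptor-like kinase of the STRUBBELIG family, had 10.2 and 1.11 RPM. By product name, 1 of 220 tested protein kinases was 4-fold lower, and 95 were at least 2-fold higher. Over all tested genes the share that was 2-fold or more higher was 33.8%, the share 2-fold or more lower was 4.58%, and the counts for families and lists that follow stand beside these shares.

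Genes of the cell wall class formed the part of the set that was most out of proportion. They were 15 of the 73 genes and 7.11% of the 211 tested genes of the class, and the class as a whole had a median log2 ratio of 0.55, near the 0.63 of all genes. The keywords of the classes were written with the members' annotations in view, so this share is a description. Of the 15, 5 are on the list of pollen genes described below. Without that list the class held 10 members of 202 tested, or 4.95%, against 0.655% of all tested genes. The list is not complete, since the 10 still include AT2G20515 and AT5G45880, whose product names hold the word pollen. AT1G21090, a cupredoxin, was the member of the class with the most reads and a ratio beyond 10. It had 616 RPM in wild type, from 3459 reads, and 44.3 RPM in dcl1-5, from 200 reads, 13.9-fold lower [12.1 to 16.1]. ENODL13 (AT5G25090), an early nodulin-like arabinogalactan protein related to the cupredoxins, had 1859 and 463 RPM, 4.01-fold lower [3.83 to 4.21]. AGP5 (AT1G35230), an arabinogalactan protein of the cell surface, had 36.2 and 2.44 RPM, 14.8-fold lower [8.12 to 30.2]. EXPA15 (AT2G03090), an expansin that loosens the wall during growth, had 109 and 23.5 RPM, 4.62-fold lower [3.75 to 5.73].

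The other wall genes had fewer reads. AT2G20515 and AT5G45880, both of the Ole e 1 family of secreted proteins first described in pollen, had 21.4 and 26.6 RPM in wild type and 1.99 and 4.65 RPM in dcl1-5. The pectin methylesterase inhibitor family gave AT5G50030, with 60 and 3 reads, and AT2G47050, with 58 and 4 reads. AT5G19580, related to glyoxal oxidases, had 19.2 and 3.77 RPM. AT3G61100, a putative endonuclease or glycosyl hydrolase, had 22.6 and 4.65 RPM. It is in the class by keyword, and its product name does not place it in the wall.

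**Figure D3:**
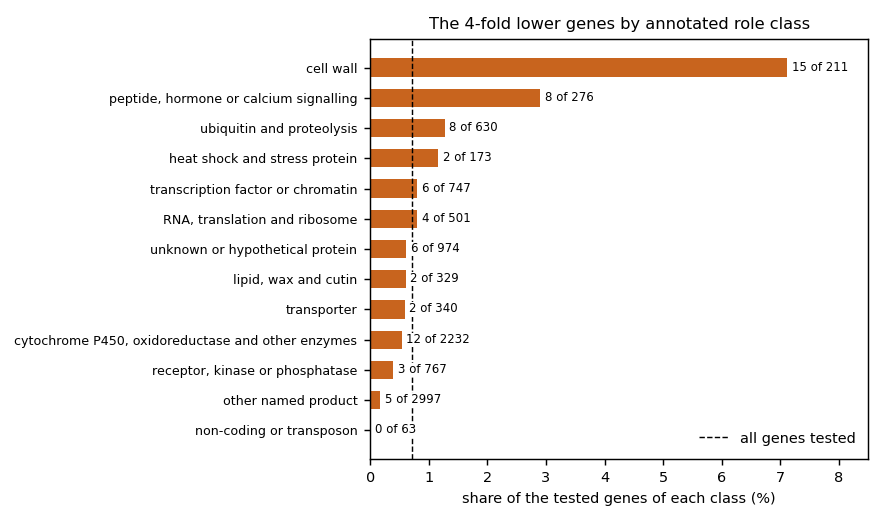
Share of the tested genes in each annotated role class that belong to the 73 genes, in percent, with the number of members and of tested genes beside each bar. The dashed line is the share over all tested genes (0.713%), and the cell wall class lies farthest above it at 7.11%.

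Several of the wall and peptide genes are known from pollen. BCP1 (AT1G24520), a protein of pollen and its nursing tissue, had 174 wild-type reads and 4 dcl1-5 reads, 31.0 and 0.886 RPM, 35.0-fold lower [13.4 to 130]. RALFL4 (AT1G28270), a peptide that keeps the pollen tube wall intact, had 163 and 4 reads, 29.0 and 0.886 RPM, 32.8-fold lower [12.6 to 122]. VGD1 (AT2G47040), a pectin methylesterase of the growing pollen tube, had 119 and 2 reads, 21.2 and 0.443 RPM, 47.9-fold lower [13.0 to 400]. In wild type these genes were read well above the floor of 3 reads, and in dcl1-5 they lay at 2 to 4 reads. AGP23 (AT3G57690), an arabinogalactan protein of pollen, had 95 and 4 reads, 19.1-fold lower [7.22 to 71.5]. BGAL11 (AT4G35010), a beta-galactosidase, had 35.5 and 5.54 RPM, and sks13 (AT3G13400), a copper oxidase-like wall protein, had 15.9 and 2.44 RPM.

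A list of 47 pollen genes was therefore read across both libraries. It was written from general knowledge after the members had been seen, so its counts describe these libraries and support nothing. Of the 47 genes, 33 were in the table, with a summed 288 RPM in wild type and 63.8 RPM in dcl1-5. Of the 12 that reached a mean of 5 RPM, 11 were at least 2-fold lower in dcl1-5, against 4.58% of all tested genes, and 6 of these belong to the 73. The other 5 lay just outside the 4-fold rule, between log2 ratios of -1.95 and -1.81. They were AGP6 (20.8 and 4.65 RPM), AGP11 (8.73 and 1.77 RPM), RALFL8 (33.1 and 8.64 RPM), RALFL19 (11.8 and 2.44 RPM) and the polygalacturonase PGA4 (26.2 and 6.203 RPM). The exception was VGDH1, a close relative of VGD1, with 4.28 and 7.09 RPM.

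Most other genes of that list had few reads in both libraries. Of the 21 listed genes under the filter, 13 had more RPM in wild type and 8 more in dcl1-5, and 10 had at most 3 reads in each library. Of those under the filter, the calcium-dependent kinase CPK17 had 36 and 2 reads and AT3G07820, listed as a polygalacturonase, had 45 and 8 reads. Among the 10 were the receptor kinases ANX1, ANX2 and PRK2A, the calcium pump ACA9 and the sperm-cell genes HAP2 and GEX2. A further 14 genes of the list, the sperm histone MGH3 and the sperm-cell factor DUO1 among them, were not in the table. The part that pollen transcripts had in the lower values of these genes was not tested, and 67 of the 73 genes are not on the list.

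**Figure D4:**
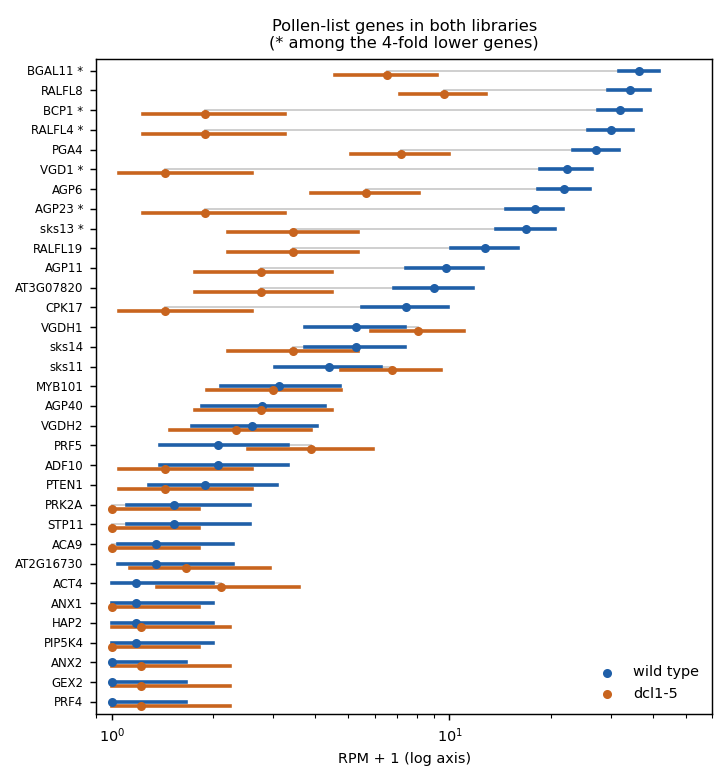
RPM + 1 of the 33 pollen-list genes in the table in wild type and dcl1-5 on a log axis, ordered by the wild-type value, with exact 95% Poisson intervals as thick bars. The 13 genes with the most wild-type RPM have wild-type intervals wholly above those of dcl1-5, and the intervals overlap for the other 20.

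Genes of ubiquitin tagging and proteolysis gave 8 members of 630 tested (1.27%). AT5G59000, a RING finger protein, had 178 wild-type reads and 4 dcl1-5 reads, 31.7 and 0.886 RPM, 35.8-fold lower [13.7 to 133]. AT2G38970, also with a RING finger, had 33.7 and 1.99 RPM, 16.9-fold lower [8.71 to 37.5]. The related ubiquitin ligases RHA2A (AT1G15100) and RHA2B (AT2G01150), which act in abscisic acid signalling of seedlings, were both in the set. RHA2A had 15.3 and 1.33 RPM, and RHA2B had 18.2 and 2.44 RPM. By product name these are 4 of 184 tested RING finger proteins, of which 7 were at least 2-fold lower and 74 at least 2-fold higher. AT3G59200, an F-box protein, had 28.5 and 5.98 RPM.

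Aspartyl proteases were the other protein-cutting group, with 3 of 22 tested. AT1G03220 had 232 wild-type reads and 15 dcl1-5 reads, 41.3 and 3.32 RPM, 12.4-fold lower [7.39 to 22.6]. The adjacent gene AT1G03230 had 53 and 3 reads, 14.2-fold lower [4.61 to 71.1], and AT3G20015 had 17.5 and 3.32 RPM. No other tested protease of this family was 2-fold lower, and 9 of the 22 were at least 2-fold higher.

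Genes of the nucleolus and of protein synthesis gave 4 members of 501 tested (0.798%), and the median log2 ratio of that class was 0.16, below the 0.63 of all genes. FIB2 (AT4G25630), a fibrillarin that methylates ribosomal RNA, had 3698 reads or 659 RPM in wild type and 546 reads or 121 RPM in dcl1-5, 5.45-fold lower [4.98 to 5.97]. AT3G44590, an acidic protein of the large ribosomal subunit, had 864 and 201 RPM, 4.31-fold lower [4.01 to 4.63]. RPSAb (AT3G04770), of the small subunit, had 95.9 and 16.8 RPM, 5.69-fold lower [4.47 to 7.34]. A gene on the same strand overlaps RPSAb in the reference annotation, and it had 23.2 and 58.7 RPM. The 2 ribosomal proteins stand among 91 tested by product name, of which 11 were at least 2-fold lower and 11 at least 2-fold higher. MCT1 (AT1G37140), an RNA-binding protein of the mei2-like group, had 10.5 and 1.11 RPM.

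Further enzymes act in protein maturation, RNA processing and nucleotide supply. DHS (AT5G05920), deoxyhypusine synthase, which modifies a translation factor, had 13.2 and 1.11 RPM. PDF1B (AT5G14660), a deformylase that trims proteins made in organelles, had 13.4 and 1.55 RPM. AT5G14580, a polyribonucleotide nucleotidyltransferase that processes RNA, had 36.5 and 7.31 RPM, 5.00-fold lower [3.45 to 7.45]. ASE1 (AT2G16570), which catalyses the committed step of purine synthesis, had 108 and 22.8 RPM, 4.74-fold lower [3.84 to 5.90].

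Enzymes as a class held 12 members of 2232 tested (0.538%), the 4 above included. NAS4 (AT1G56430), a nicotianamine synthase that makes a chelator of iron and other metals, had 91 wild-type reads or 16.2 RPM and no dcl1-5 read. It was at least 24.4-fold lower against the floor of 3 reads, with an exact lower bound of 19.4. AT5G19060, annotated as a cytochrome P450 family protein, had 67 reads and 1 read, 11.9 and 0.222 RPM. TGG2 (AT5G25980), a myrosinase that breaks down glucosinolates, had 16.6 and 2.44 RPM. The rest of the class had between 10.3 and 16.0 RPM in wild type: AT4G35070, annotated as an S-ribonuclease binding protein, AT5G57230 of the thioredoxin superfamily, AT5G04070 with a Rossmann fold, CBSX6 (AT1G65320) and AT1G58120.

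Lipid, transport and stress genes were few. The membrane-bound acyltransferase AT5G55340 had 67 and 3 reads, 18.0-fold lower [5.89 to 89.3], and the terpenoid cyclase AT3G14540 had 63 and 7 reads. The mitochondrial carrier AT3G53940 had 17.3 and 3.102 RPM, and the exchanger-like AT1G53760 had 12.3 and 2.22 RPM. HSP23.6-MITO (AT4G25200), a small heat shock protein of mitochondria, had 27.6 and 4.87 RPM, 5.67-fold lower [3.61 to 9.31]. DDB2 (AT5G58760), which recognises ultraviolet damage in DNA, had 11.6 and 1.55 RPM. Stress and heat shock proteins made up 2 of 173 tested (1.16%).

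A further 5 named proteins were in no class. WVD2 (AT5G28646), a microtubule-binding protein that sets the handedness of growth, had 60 wild-type reads or 10.7 RPM and no dcl1-5 read, at least 16.1-fold lower against the floor, with an exact lower bound of 12.7. KLCR3 (AT1G27500), related to kinesin light chains, had 19.1 and 2.44 RPM. The WD40 repeat proteins AT2G18900 and AT1G24530 had 52.9 and 23.5 RPM in wild type and 11.1 and 4.43 RPM in dcl1-5, and the ankyrin repeat protein AT5G65860 had 32.1 and 6.203 RPM. Proteins of unknown function were 6 of 974 tested (0.616%). Among them AT3G49540 had 54.0 and 4.87 RPM, 11.1-fold lower [7.18 to 17.9], AT2G28330 had 90.9 and 16.2 RPM, and AT3G51750 had 16.2 and 3.102 RPM. AT1G23149 and AT1G23150 had the same 72 and 1 reads, and AT1G58120 and AT1G58122 the same 82 and 10 reads, so the 73 genes hold 71 separate read counts.

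Close relatives outside the set were placed beside some of the members. They were chosen from the annotation with the values known, and none could be 4-fold lower, because such relatives, as RHA2B is of RHA2A, are members themselves. The counts are therefore partly fixed by the choice, and near-identical copies lose the reads they share. At a mean of at least 5 RPM there were 20 related genes or partners of 16 members, of which 2 were lower by 2-fold or more and 4 higher by 2-fold or more. A log2 ratio below 0 was found for 11 of the 20, and one below the 0.63 of all genes for 13. FIB1, the other fibrillarin, had 453 and 264 RPM, 1.72-fold lower [1.601 to 1.84] beside 5.45-fold for FIB2. P40, the other ribosomal protein SA, was 1.89-fold lower [1.84 to 1.93] beside 5.69-fold for RPSAb. Of the relatives of AT3G44590, AT2G27720 and AT2G27710 were 1.88-fold and 1.92-fold lower, while AT3G28500 was 2.25-fold higher. ENODL14 was 3.05-fold lower [2.96 to 3.15] and ENODL15 1.64-fold lower, so the log2 ratios of these nodulin-like genes had the same sign and different sizes. The mitochondrial small heat shock protein AT5G51440 was 3.56-fold lower [2.54 to 5.11], beside 5.67-fold [3.61 to 9.31] for HSP23.6-MITO.

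Other relatives were higher in dcl1-5. HP6 was lower, while the true phosphotransfer proteins AHP2 and AHP3 had 0.356 and 3.92 RPM in wild type and 9.53 and 11.7 RPM in dcl1-5, with AHP2 under the filter. GASA4 was lower, while GASA1 was 2.07-fold and GASA6 2.33-fold higher. Beside AT1G68810, its relative TMO5 (BHLH32, AT3G25710) had 8.73 and 15.7 RPM. ERF11, next to ERF12 on the chromosome, had 7.66 and 15.5 RPM. The remaining relatives with a lower value in dcl1-5 differed by less than the member. EXPA1, the relative of EXPA15, had 10.2 and 5.10 RPM, 1.99-fold lower [1.21 to 3.39]. WDL1, the relative of WVD2, had 35.6 and 19.9 RPM, and ASE2 had 91.2 and 66.0 RPM. TGG1 had 7.13 and 5.54 RPM, with a ratio whose interval [0.762 to 2.21] holds 1.

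**Figure D5:**
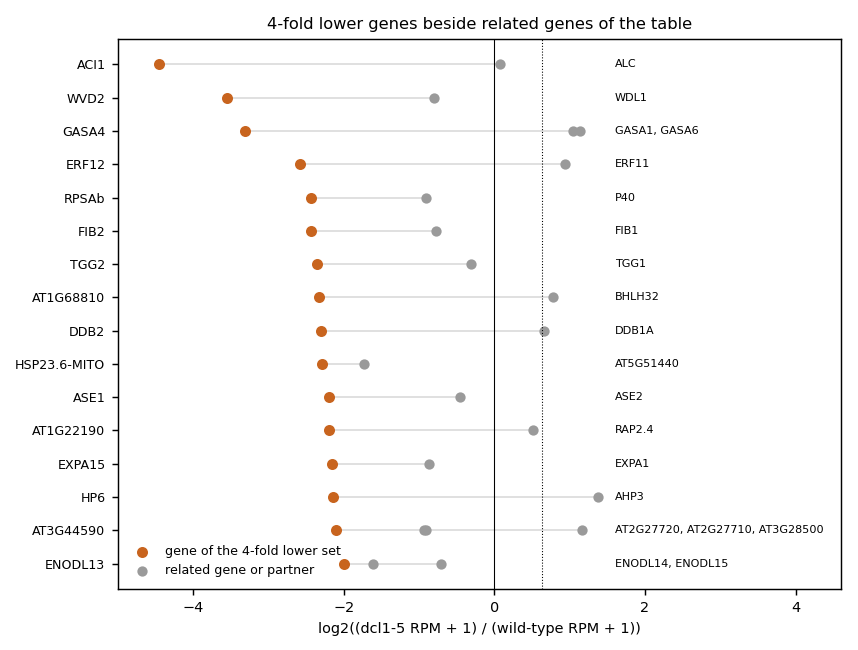
Log2 ratio (dcl1-5 over wild type, after adding 1 RPM) of 16 of the 73 genes beside that of related genes or partners at a mean of at least 5 RPM, which are named at the right. The solid line is 0 and the dotted line the median of all tested genes at 0.63. Members lie at or below -2 by the rule, and the related genes lie on both sides of 0.

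Lists of pathway genes overlapped little with the set. These lists were chosen with earlier results of these data known, so their counts and shares are a description and no test of enrichment. A list of 29 embryo patterning genes, mostly of the root, suspensor and lower embryo, had 22 tested, with a median log2 ratio of -0.25. Of the 22, 9 were at least 2-fold lower and 3 at least 2-fold higher, against 4.58% and 33.8% of all tested genes. At least 4-fold lower were 5 (22.7%), against 0.811% of all tested genes, and these 5 are among the 10 genes that the rule leaves out. They are TMO6 (29.8 and 0 RPM), JKD (24.4 and 0.665 RPM), CRF2 (37.1 and 1.99 RPM), ESR1 (26.7 and 1.99 RPM) and WOX5 (11.6 and 1.99 RPM). Early wound, touch and stress genes leaned the other way, with 1 of 21 tested at least 2-fold lower and 12 at least 2-fold higher, against 33.8% of all tested genes. The lower one was ERF5, which the rule also leaves out, with 18.7 and 0.443 RPM, whereas ERF104 had 2.85 and 35.2 RPM and WRKY40 had 3.39 and 24.6 RPM. The median log2 ratio of the wound list was 1.15.

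The gibberellin list had 12 tested genes, of which 3 were at least 2-fold lower and 7 at least 2-fold higher, against 4.58% and 33.8% of all tested genes, shares that also apply to the heat shock and auxin lists. GASA4 is the only one of the 73 on it. SLY2 (29.4 and 0.886 RPM), an F-box protein that marks DELLA repressors for destruction, is left out by the rule, and GA20OX2, an oxidase of gibberellin synthesis, had 3.92 and 17.3 RPM. The DELLA repressor RGL1 had 2.67 RPM in wild type and 17.5 RPM in dcl1-5. All 10 heat shock genes were tested, with 2 at least 2-fold lower and none 2-fold higher, and a median of -0.47. HSP23.6-MITO is the member on this list, and HSP17.4 had 23.5 and 6.203 RPM. Of the early auxin genes none of the 6 tested was 2-fold lower and 4 were at least 2-fold higher, IAA1 with 0.178 and 11.5 RPM among them. The 3 genes left out by the rule that are on none of these lists are the aquaporin PIP2;8 (34.2 and 0.222 RPM), AT3G15680 (344 and 1.55 RPM) and GRF2 (94.98 and 20.2 RPM).

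Position and gene structure were not used to choose the genes. The share of tested genes that belong to the set ran from 0.393% on chromosome 4 (6 genes) to 0.866% on chromosome 1 (23 genes), with 12, 12 and 20 genes on chromosomes 2, 3 and 5. There were 4 cases of neighbouring loci in the table that were both in the set and had different reads. They were AT1G03220 with AT1G03230, BCP1 with AT1G24530, AT2G18890 with AT2G18900, and VGD1 with AT2G47050. Of the 71 members found in the reference annotation, 16.9% overlapped another annotated locus on either strand, against 33.1% of tested genes, and 7.04% overlapped one on the same strand, against 5.59%. Those on the same strand were ABCB4, RPSAb, FIB2, AT5G65860 and AT3G51750, and their reads may be shared with the partner locus. In wild type and dcl1-5 the partner of RPSAb had 23.2 and 58.7 RPM. The partner of FIB2 had 0 and 0.222 RPM, and that of AT3G51750 had 0.356 and 0.222 RPM. No value was listed for the same-strand partners of ABCB4 and AT5G65860. The longest annotated protein had a median of 320 amino acids over the 71 members and 360 over the 10147 tested genes with one.

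Promoter windows were searched for 14 short motifs, and none but the TATA box was in more than 19.7% of the members. The window ran from 250 bases before to 50 bases after the annotated start, and both strands were searched. The auxin response element TGTCTC was present in 18.3% of 71 members and in 13.0% of 10189 tested genes, and the W-box form TTGACC in 19.7% and 14.4%. The site II element TGGGCC, a frequent element of ribosomal protein and growth genes, was present in 11.3% of members [4.99% to 21.0%] and 22.9% of tested genes. With 14 motifs read side by side, no adjustment was made for their number. The G-box CACGTG was found in 7.04% and 9.45%, the GCC-box GCCGCC in 2.82% and 2.55%, the telo-box AAACCCT in 14.1% and 10.4%, and the TATA box TATAAA in 52.1% and 51.7%. Of the other motifs searched, TGTCGG was in 7.04% and 5.53%, ACGTGT in 14.1% and 13.8%, ACGTGG in 11.3% and 11.3%, GCCGAC in 2.82% and 3.74%, TTGACT in 14.1% and 20.7%, CGCGTT in 1.41% and 3.97%, and TTGGCGC in 1.41% and 0.962%. A match is a string of letters in the window and says nothing of binding.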

How the data were processed

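Members and gene lists were chosen with earlier results of these data known. Bowtie (version not given in the sources used here) was run by the authors against TAIR9 with at most 2 mismatches in a seed of 25 nt; reads with a single genomic position were counted on the strand that the amplification gives, per the series' design text. The deposited values are RPM, scaled per library to 1000000 reads that matched the genome, per the file headers. All values (100%) were whole multiples of 1 read within 0.01 reads, so the depth was 5611643 reads for wild type and 4513588 for dcl1-5, with 1 read worth 0.178 and 0.222 RPM. The floor of 3 reads was 0.535 and 0.665 RPM. RPM is not scaled to gene length, so values are compared within a gene.

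RPM intervals are exact Poisson and ratios exact conditional (Clopper-Pearson) 95% intervals. The pseudocount of 1 RPM understates changes of low genes. Printed folds are plain RPM ratios. Names, products, overlaps, protein lengths and promoter windows come from RefSeq TAIR10.1, matched by locus for 20509 of 20612 loci. It differs from TAIR9, so no coordinates or sequences are printed. Each gene took the first role class whose keywords its annotation held. Named by rule were the 20 lowest log2 ratios, the 15 highest wild-type values, up to 4 members per class, members on fixed lists or with 0 dcl1-5 reads, 3 genes on each side of the threshold, DCL1, and up to 4 tested genes per list. The values of 1 of the 73 genes are not reported here. The other members, relatives and pollen genes were named after their values were seen. Alternatives used edgeR 4.0.16 in R 4.3.3 (TMM) and Python 3.11.15 with numpy 2.4.6, pandas 2.3.3 and scipy 1.17.1. The rule and intervals were tested on simulated reads that held counting error only. The simulation had no amplification or biological variation and no shift between libraries, so it checks the computation and not these data.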

Additional observations from a re-analysis of the deposited data

How the results depend on the processing

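The number of genes meeting the rule depended on most processing choices. It was 102 with a pseudocount of 0.1 RPM and 22 with 5 RPM, 167 with no expression filter and 18 at a mean of at least 20 RPM. Scaling to equal totals gave 72, median-of-ratios 160 and TMM 224. A 2-fold threshold gave 459 and an 8-fold threshold 21, and 39 had a whole exact interval beyond 4-fold. Counting identical neighbours once gave 71, and leaving out the pollen list gave 67. All 73 stayed at least 2-fold lower under both pseudocounts and the 3 scalings, and all 73 stayed 4-fold lower with median-of-ratios and TMM. These counts were largely fixed by the choice of the genes and are no check of it. A pseudocount cannot change the sign of a ratio, and median-of-ratios and TMM scaling lowered the ratio of every gene. An exact binomial test on recovered reads, chosen after seeing the data like the last 2 counts, called 7567 of 10240 genes at a Benjamini-Hochberg adjusted level of 0.05. It compares these 2 libraries and not the genotypes, and it says nothing of the 73, which were chosen on the same reads. Over all genes that passed the filter, the median log2 ratio was 0.67 and 0.51 with the pseudocounts, 0.42 with no filter, 0.47 at 20 RPM, 0.66 with equal totals, 0.18 with median-of-ratios and 0.000241 with TMM, against 0.63 as reported. Depth limits genes near 10 RPM in wild type, where dcl1-5 had 0 to 10 reads. No paired analysis was possible because each genotype has 1 library.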
